A study of Mus musculus with 20 samples.

Results

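The collagen genes were followed through single-cell RNA-seq of the mouse spinal cord. They were taken as every symbol of the count table that starts with Col and a digit, which gave 37 of 16003 symbols. Col4a3bp, 1 of the 37, codes for the ceramide transfer protein and is no collagen, so it was kept out of the sums. The other 36 are collagen chains, of which 24 held at least 100 UMIs (unique molecular identifiers, each marking 1 captured transcript). Together they held 28851 UMIs.

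Collagens are secreted or membrane-bound proteins with a triple helix wound from 3 chains. Fibrillar collagens (types I, II, III, V, XI and XXVII) build the striated fibrils of connective tissue and scars, type IV builds the sheet of the basement membrane around vessels, and type VI builds beaded filaments between them. FACITs (types IX, XII, XIV, XVI, XX and XXII) decorate fibrils, type VIII forms short-chain networks, the multiplexins XV and XVIII sit at basement membranes, and types XXIII and XXV span the cell membrane. In the cord, collagen is known from the meninges and the vessel wall, and after injury from the fibrotic scar.

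Female C57BL/6J mice aged 8 to 10 weeks ate vehicle chow or chow with PLX5622 (1200 ppm), an inhibitor of the Csf1 receptor that depletes microglia. The diet began 2 weeks before a thoracic contusion spinal cord injury (SCI) or a sham laminectomy, and it went on until tissue was taken at 7 or 28 days post-injury (dpi). Each diet gave 3 libraries (sham, 7 dpi and 28 dpi), 6 in all, and the sham labels name both times. Each condition was 1 library made from the pooled cords of several mice, with the meninges kept, so differences between libraries have no replicate check and no test was made. Intervals below are 95% exact Poisson intervals for levels and exact conditional binomial intervals for log2 ratios, and they cover counting error only.

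The table held 21016 cells in 14 clusters, from 492 cells in PLX5622 sham to 9846 in vehicle 28 dpi, with 2606149 to 35694246 UMIs per library and a median of 2268 to 5127 UMIs per cell. Clusters are given here with names from marker genes and are called "-like". Libraries shared 44 cell barcodes. Cluster 12 (168 cells) had the highest level of 5 of 6 fibroblast markers and of 6 of 6 mural (pericyte) markers, so it is called fibroblast- and pericyte-like. Cluster 13 (134 cells) had the highest level of 4 of 5 leptomeningeal markers, the exception being Slc6a13, which was at 0 in it in every library. The clusters were made from the same counts, and Col27a1, Col3a1 and Col8a1 were among the 10 leading genes of clusters 0, 12 and 13, so where the collagens lie is a description.

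Most collagen transcripts came from very few cells. Clusters 12 and 13 made up 0.799% and 0.638% of the cells and held 32.1% and 31.0% of the collagen UMIs. Summed collagen was 16612 CPM (UMIs per 1000000 UMIs of the same cells, with an interval of 16275 to 16953) in cluster 12 and 8538 CPM (8362 to 8716) in cluster 13. It was 1034 CPM in the oligodendrocyte-lineage-like cluster, 919 in the endothelial-like, 542 in the astrocyte-like, 524 in the ependymal-like, 106 in the microglia-like and 23.4 in the MDM-like cluster (monocyte-derived macrophages). The B cell-like and T cell-like clusters, whose cells are not known to make collagen, stood at 31.3 and 26.3 CPM, so the MDM-like level was no higher than that background.

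The classes were divided among different cells. The 10 fibrillar genes held 54.2% of the collagen UMIs, the 6 type IV genes 15.0%, the 4 type VI genes 10.5%, the 8 FACITs 7.34%, the 2 type VIII genes 6.36%, the 2 multiplexins 3.54% and the 2 transmembrane collagens 2.71%. Clusters 12 and 13 held 48.5% and 26.2% of the fibrillar UMIs, at 13584 and 3904 CPM. Of the 7582 fibrillar UMIs of cluster 12, 4804 came from vehicle sham, and without that library it held 35.2% of the fibrillar UMIs at 8497 CPM. Type IV was placed elsewhere, with 74.1% of its UMIs in the endothelial-like cluster at 805 CPM (777 to 833), against 639.6 CPM (575 to 709.5) in cluster 12 and 90.6 in cluster 13. Fibrillar genes were 81.8% of all collagen UMIs of cluster 12, 45.7% of cluster 13 and 6.80% of the endothelial-like cluster.

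**Figure D1:**
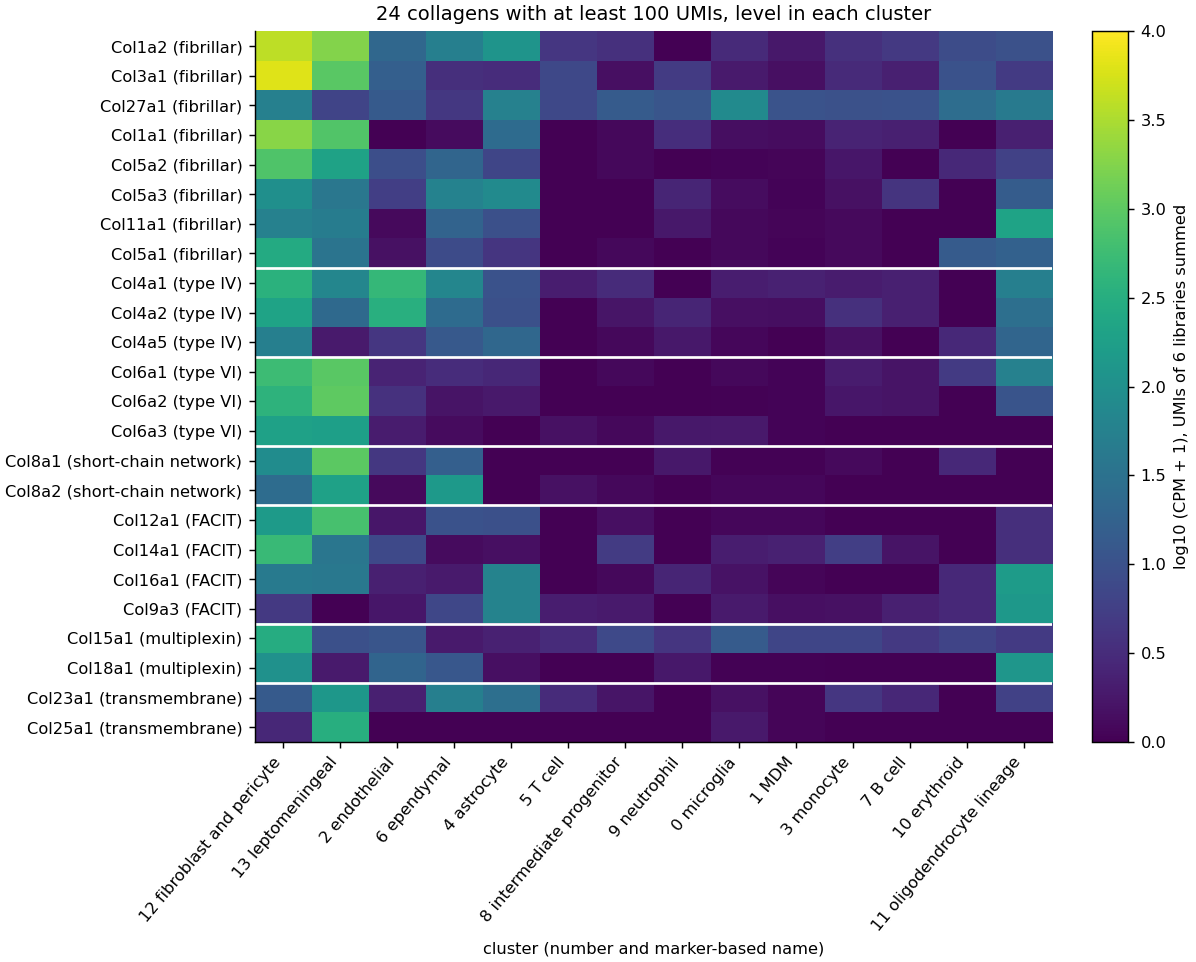
Level of the 24 collagens with at least 100 UMIs (rows, grouped by class) in the 14 clusters (columns), as log10 of CPM plus 1 over the 6 libraries summed. Fibrillar rows are brightest in cluster 12, type VI, Col8a1 and Col12a1 in cluster 13, and Col4a1 and Col4a2 in the endothelial-like cluster.

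By highest CPM, 10 of the 24 peaked in cluster 12, 7 in cluster 13, 4 in the oligodendrocyte-lineage-like, 2 in the endothelial-like and 1 in the microglia-like cluster. Clusters 12 and 13 thus had the peak of 70.8% of the 24, against 16.9% of all 12852 genes with at least 100 UMIs. The library tags the end of a transcript, so UMIs count each transcript once whatever its length. Col3a1, the chain of type III fibrils, was the highest of all at 6351 CPM in cluster 12 against 942 in cluster 13. Col1a2 and Col1a1, the chains of type I collagen, stood at 3972 and 1979.7 CPM in cluster 12 and at 1804 and 832 in cluster 13. Col5a2 and Col5a1, chains of the type V collagen that starts fibrils, stood at 795 and 274 CPM in cluster 12 and at 203 and 33.4 in cluster 13. Col14a1, a FACIT of fibril surfaces, was at 516 CPM in cluster 12 and 36.2 in cluster 13.

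Cluster 13 led in a different set. Col6a2 and Col6a1, chains of type VI filaments, stood at 1027 and 944 CPM there, against 379.8 and 543 in cluster 12. Col8a1, a chain of type VIII networks, stood at 981 against 86.0, and Col12a1, a FACIT, at 677 against 149. Col25a1, a transmembrane collagen first known from amyloid plaques, had 94.2% of its UMIs in cluster 13 (324 CPM), and its next level was 1.79 CPM. Col6a3, the third chain of type VI, was close in both clusters, with 197 CPM (162 to 238) in cluster 12 and 182 (157 to 209.8) in cluster 13.

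Several collagens were also found in cells outside clusters 12 and 13, some of them at their highest level. Col27a1, a fibrillar collagen known from cartilage, had 64.9% of its UMIs in the microglia-like cluster at 80.3 CPM (76.2 to 84.6), above 57.2 (47.7 to 68.1) in the astrocyte-like cluster. Col8a2, the partner chain of Col8a1, had 67.0% of its UMIs in the ependymal-like cluster (145 CPM, 132 to 159), although its level was higher in cluster 13 (192 CPM, 166 to 220). Col11a1, Col16a1, Col9a3 and Col18a1 peaked in the oligodendrocyte-lineage-like cluster at 207, 157, 137 and 126 CPM. For Col18a1 the next level, 106 CPM in cluster 12 (80.5 to 136), overlapped the first (102 to 153), as did 98.5 CPM in cluster 12 and 81.5 in the astrocyte-like cluster for Col5a3. Col23a1, the other transmembrane collagen, stood at 132 CPM in cluster 13 and 53.2 in the ependymal-like cluster, and Col4a5, a less abundant type IV chain, at 52.0 CPM in cluster 12 and 20.7 in the astrocyte-like cluster. Col15a1 shows how cluster size enters, since 30.5% of its UMIs lay among the many microglia-like cells at 12.9 CPM while cluster 12 stood at 299 CPM.

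The other 12 collagens held 3 to 99 UMIs each. Col11a2 (99 UMIs) and Col7a1 (74), the anchoring fibril collagen, had most UMIs in the astrocyte-like cluster, and Col20a1 (79), Col9a1 (16) and Col4a6 (26) in the oligodendrocyte-lineage-like cluster. All 17 UMIs of Col6a5 lay in the ependymal-like cluster. Col9a2 (38), Col4a4 (26), Col4a3 (16), Col2a1 (9), Col26a1 (6) and Col22a1 (3) were too sparse to be placed. Col4a3bp held 3327 UMIs and peaked in the endothelial-like cluster at 264 CPM, against 69.6 CPM in cluster 13, the next highest.

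The sequences before the start sites of 4 members are shown as examples, 1 with the highest level in cluster 12, 2 in cluster 13 and 1 in the microglia-like cluster. The windows are the 250 bases upstream of the RefSeq start in GRCm38.p6, at chr1:45311288-45311537, plus strand (Col3a1), chr16:57754738-57754987, minus strand (Col8a1), chr3:130180595-130180844, plus strand (Col25a1) and chr4:63215162-63215411, plus strand (Col27a1), and none of the 4 windows overlaps an annotated exon. The GENCODE gene starts at the same base for Col3a1 and Col8a1, but 1408 bases before the RefSeq start for Col27a1 and 49344 bases before it for Col25a1, so these 2 windows lie inside the GENCODE gene. Capitals mark the letters TATAAA, read as a TATA box. They also mark the CCAAT box, which is named by its letters, and a GC box, whose letters are GGGCGG. Both strands were searched.
Col3a1: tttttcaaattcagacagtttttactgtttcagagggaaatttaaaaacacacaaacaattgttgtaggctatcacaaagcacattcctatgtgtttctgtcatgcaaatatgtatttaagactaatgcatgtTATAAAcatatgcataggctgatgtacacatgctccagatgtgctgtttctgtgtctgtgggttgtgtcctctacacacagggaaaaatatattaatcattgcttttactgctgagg
Col8a1: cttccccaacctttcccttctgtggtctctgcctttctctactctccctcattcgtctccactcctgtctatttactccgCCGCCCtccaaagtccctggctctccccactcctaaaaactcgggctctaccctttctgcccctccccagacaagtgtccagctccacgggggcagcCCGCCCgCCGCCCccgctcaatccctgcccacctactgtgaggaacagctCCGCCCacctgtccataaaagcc
Col25a1: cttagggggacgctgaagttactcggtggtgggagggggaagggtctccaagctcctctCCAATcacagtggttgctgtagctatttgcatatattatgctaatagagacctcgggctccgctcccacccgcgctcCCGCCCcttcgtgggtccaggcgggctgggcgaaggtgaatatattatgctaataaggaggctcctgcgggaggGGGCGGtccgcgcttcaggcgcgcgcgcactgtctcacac
Col27a1: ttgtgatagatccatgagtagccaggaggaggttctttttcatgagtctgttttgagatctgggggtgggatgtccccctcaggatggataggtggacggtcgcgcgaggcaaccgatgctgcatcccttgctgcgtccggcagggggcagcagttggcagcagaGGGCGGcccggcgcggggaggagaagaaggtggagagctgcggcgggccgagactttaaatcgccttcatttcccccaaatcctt
Col3a1 holds a TATA box 117 bases before the start in a stretch of 35.2% G and C. Col8a1, Col25a1 and Col27a1 hold 4, 2 and 1 GC boxes in stretches of 60.8%, 60.4% and 59.6% G and C, and Col25a1 also holds a CCAAT box. Such a window was found for 27 of the 36 collagens. A GC box was in 19 of 27 (70.4%) against 32.9% of 27025 windows of all genes, a CCAAT box in 10 (37.0%) against 34.5%, and a TATA box in 2 (7.41%) against 3504 of the 27025. A match is a run of letters and was not tested as a binding site.

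Some of the collagen genes lie side by side in the genome. In the GENCODE annotation of this build, Col4a1 and Col4a2 lie head to head on chromosome 8, with starts 21 bases apart and an overlap of 22 bases at their starts. Col4a4 and Col4a3 on chromosome 1 start 72 bases apart, also head to head, and Col4a6 and Col4a5 on the X start 1309 bases apart. Col3a1 and Col5a2 face each other on chromosome 1 with 24614 bases between them. Col6a1 and Col6a2 lie on the same strand of chromosome 10 with 85161 bases between them.

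Partner chains were not present in 1 fixed ratio. Col1a1 had 0.498 UMIs per Col1a2 UMI in cluster 12 and 0.461 in cluster 13. In the ependymal-like cluster there was 1 Col1a1 UMI beside 163 of Col1a2, in the astrocyte-like 53 beside 260, and in the endothelial-like 0 beside 82. The astrocyte-like ratio was itself uneven, with 0 beside 34 in vehicle 7 dpi and 27 beside 54 in PLX5622 sham. Col3a1 per Col1a2 was 1.60 in cluster 12, 0.522 in cluster 13 and 0.0192 in the astrocyte-like cluster. The exact intervals of these shares did not overlap between cluster 12 and the astrocyte-like or ependymal-like cluster. Col8a1 per Col8a2 was 5.12 in cluster 13 and 0.106 in the ependymal-like cluster, with 4.36 to 7.50 and 0.0476 to 0.190 over the 6 libraries. Col4a1 per Col4a2 was 1.40 in the endothelial-like, 1.71 in cluster 12 and 2.88 in the ependymal-like cluster.

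Cluster 12 held both of the cell kinds its name gives, and the collagen classes divided between them. Of its 168 cells, 72 had more UMIs of the fibroblast list (Dcn, Lum, Pdgfra, Apod, Serpinf1, Mfap5) and 92 had more of the mural list (Rgs5, Kcnj8, Abcc9, Vtn, Notch3, Higd1b), 4 had equal numbers or none, and 1 cell had both lists within 2-fold. The first kind held 18852 fibrillar CPM (18422 to 19290.1) and 320.5 type IV CPM (267 to 382), and the second 1678 and 1364. The 1 cell with both lists within 2-fold, from vehicle sham, held 195 of the 278 fibrillar UMIs of the second kind, and without it that kind held 538 fibrillar CPM (428 to 666) and 1315 type IV CPM. By gene, Col3a1 was at 8927 against 495 CPM (143 without that cell), Col1a2 at 5485 against 573 (162), Col1a1 at 2706 against 350.0 (2 UMIs without it) and Col6a1 at 752 against 30.2 (6.48). Col14a1 had 288 UMIs in the first kind and 0 in the second. Col4a1 went the other way, at 171 against 760.4 CPM, as did Col4a2 at 101 against 459, while Col5a3 was at 93.0 against 115 and Col18a1 at 114 against 84.5 (38.9 without that cell). No collagen was used to divide the cells.

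**Figure D2:**
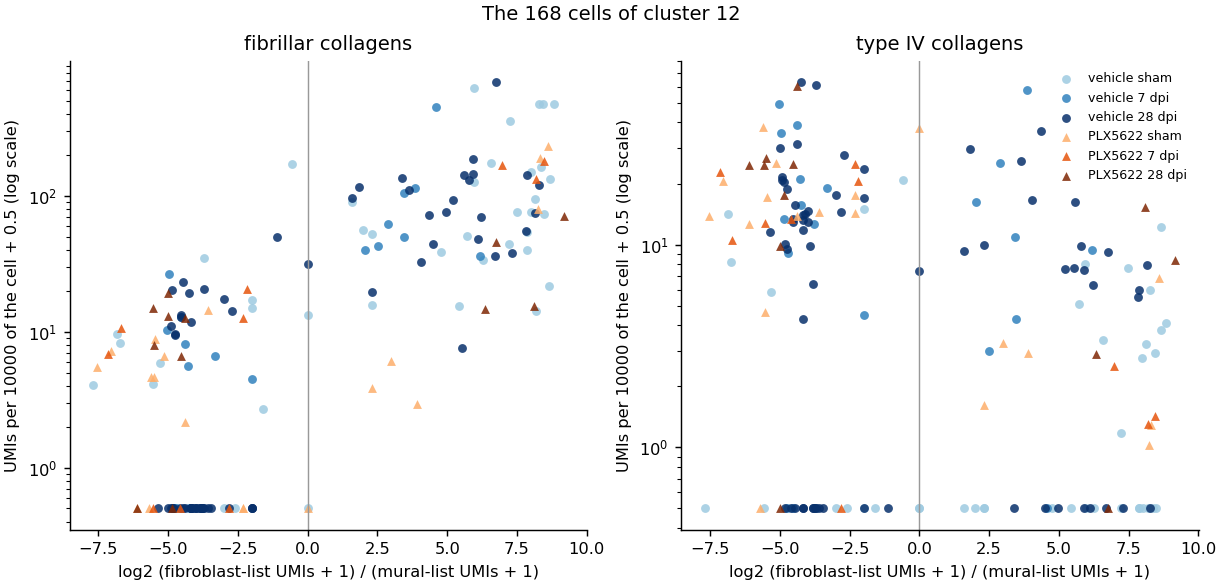
Each point is 1 of the 168 cells of cluster 12, coloured by library, with the log2 ratio of fibroblast-list to mural-list UMIs on the x axis and the UMIs of fibrillar (left) or type IV (right) collagens per 10000 UMIs of the cell, plus 0.5, on a log y axis. Cells on the right side of the vertical line, which have more fibroblast-list UMIs, hold most of the fibrillar UMIs, and type IV is spread over both sides.

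Over all cells of a library, the vehicle libraries held 1506 (sham), 117 (7 dpi) and 159.8 (28 dpi) collagen CPM. The PLX5622 libraries held 1846 (sham), 772 (7 dpi) and 335 (28 dpi). The injured libraries were lower on both diets. In such whole-library sums a smaller share of collagen-rich cells cannot be told apart from less collagen RNA per cell. More cells of other kinds also lower that share. Clusters 12 and 13 together were 68 of 1795 cells in vehicle sham, 29 of 7439 at 7 dpi and 130 of 9846 at 28 dpi, and 33 of 492, 22 of 504 and 20 of 940 under PLX5622. Their share of fibrillar UMIs was 87.8%, 37.0% and 46.6% under vehicle and 85.4%, 77.7% and 44.6% under PLX5622.

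Within cluster 12, fibrillar collagen was highest in vehicle sham. It was 20775 CPM there, 10347 in vehicle 7 dpi and 7195 in vehicle 28 dpi, and in the same order 7611, 12918 and 1885 under PLX5622, from 4804, 431, 677, 811, 819 and 40 UMIs. Vehicle 7 dpi over sham was −1.01 on the log2 scale (−1.15 to −0.86) and 28 dpi over sham −1.53 (−1.65 to −1.41). PLX5622 over vehicle was −1.45 (−1.56 to −1.34) for the sham libraries. At 7 dpi that ratio was 0.32 (0.15 to 0.49), and at 28 dpi it was −1.93 (−2.43 to −1.47). A single cell held 79.1% of the fibrillar UMIs of vehicle 7 dpi, and 20.6% to 49.3% in the other libraries. Without the top cell of each library, vehicle 7 dpi over sham was −2.75 and PLX5622 over vehicle at 7 dpi was 1.95. In cells without a mural-list UMI those ratios were 0.49 and −0.80, so both directions depend on which cells are counted. At 7 dpi that set was very small and kept the top cell of each library. Those cells held 341 fibrillar UMIs in vehicle and 392 in PLX5622.

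The makeup of cluster 12 moved with these levels. Its 2 cell kinds were 27 fibroblast-list and 12 mural-list cells in vehicle sham, 8 and 12 at 7 dpi and 24 and 41 at 28 dpi, and 6 and 12, 3 and 7, and 4 and 8 under PLX5622. The summed mural list, none of its 6 markers at 0 in any library, was 4234, 8067 and 9012 CPM under vehicle and 9440.4, 6846 and 14754 under PLX5622. The summed fibroblast list was 41840.0, 7442 and 29747 CPM under vehicle and 9741, 50805 and 48739 under PLX5622, with Lum at 0 in PLX5622 sham and Pdgfra at 0 in PLX5622 28 dpi. Single cells weighed on this sum. In PLX5622 7 dpi 1 cell held 2608 of its UMIs and the next cell 350, and in PLX5622 28 dpi these were 574 and 273. The summed MDM list was 104, 1368 and 1924 CPM under vehicle and 216, 315 and 1131 under PLX5622. Among the fibroblast-list cells, fibrillar collagen was 23273, 18132 and 16348 CPM under vehicle and 11454, 16539 and 3529 under PLX5622, and the ratios were −0.36 and −0.51 for vehicle 7 and 28 dpi over sham and −1.02 for PLX5622 over vehicle in sham. The vehicle 7 dpi level rests mainly on 1 cell, which held 341 of the 422 fibrillar UMIs of these 8 cells. The part of the other lists in the cluster's ratios was not tested beyond this.

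Vehicle sham was also the highest library for Col3a1, Col1a2 and Col1a1. Col3a1 was at 9869, 3145 and 3581 CPM under vehicle and at 3904, 5868 and 330.0 under PLX5622 (sham, 7 and 28 dpi in turn). Col1a2 was at 5972, 3457 and 1955 CPM under vehicle and at 2271, 3991 and 613 under PLX5622. PLX5622 28 dpi, with 7 and 13 UMIs, was the lowest for both. Col1a1 was at 3053, 2209 and 1031 CPM under vehicle and 807, 1893 and 189 under PLX5622. Col14a1 was at 705, 0 and 202 CPM under vehicle and at 507, 820.2 and 0 under PLX5622, so vehicle 7 dpi was at least 9.79-fold lower than sham against a floor of 3 counts in the library. Col5a3, the type V chain also found in astrocyte-like cells, went the other way at 28 dpi, with 15 UMIs (159 CPM) against 17 (73.5 CPM) in vehicle sham.

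Type IV in cluster 12 had another order. It was 359, 1056 and 956 CPM under vehicle and 723, 457 and 1603 under PLX5622. Vehicle 7 dpi over sham was 1.56 (1.00 to 2.10) and 28 dpi over sham 1.41 (0.97 to 1.86), opposite in sign to the fibrillar sum. PLX5622 over vehicle in sham was 1.01 (0.54 to 1.47). The mural list was higher in the same libraries (above). Within the 2 kinds, vehicle type IV was 263, 602 and 787 CPM in fibroblast-list cells, from 52, 14 and 31 UMIs. In mural-list cells it was 954, 1632 and 1100.2 CPM, from 31, 30 and 57 UMIs. Of those 31 sham UMIs, 23 came from the 1 cell with both lists within 2-fold. PLX5622 sham stood at 245 and 1539.9 CPM in the 2 kinds. The part of the cell mix was not tested. Type VI was 1423, 2377 and 744 CPM under vehicle and 723, 678 and 330 under PLX5622, and 88.0% of the Col6a1 UMIs of vehicle 7 dpi came from 1 cell.

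Counted gene by gene among collagens whose UMIs in the 2 libraries summed to at least 30, 4 of 15 were at least 2-fold higher and 3 of 15 at least 2-fold lower in vehicle 7 dpi than in sham, where 9.71% and 18.8% of all 1606 genes so counted passed the same limits. The 4 were Col4a1, Col8a1, Col18a1 and Col4a2, and the 3 were Col14a1, Col3a1 and Col15a1. At 28 dpi 4 of 15 were higher (Col4a1, Col4a2, Col18a1, Col5a3) and 8 lower (Col12a1, Col5a1, Col5a2, Col14a1, Col1a2, Col1a1, Col3a1, Col6a2), against 7.37% and 17.7% of 1926 genes, and the median over the 15 was −1.40, against −0.15 over all genes. In PLX5622 sham against vehicle sham 1 of 13 was higher (Col4a1) and 8 lower (Col12a1, Col15a1, Col1a1, Col5a2, Col1a2, Col3a1, Col5a1, Col6a2), against 6.79% and 9.22% of 2018 genes, with a median of −1.34 against −0.02. The comparisons share the vehicle sham library.

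**Figure D3:**
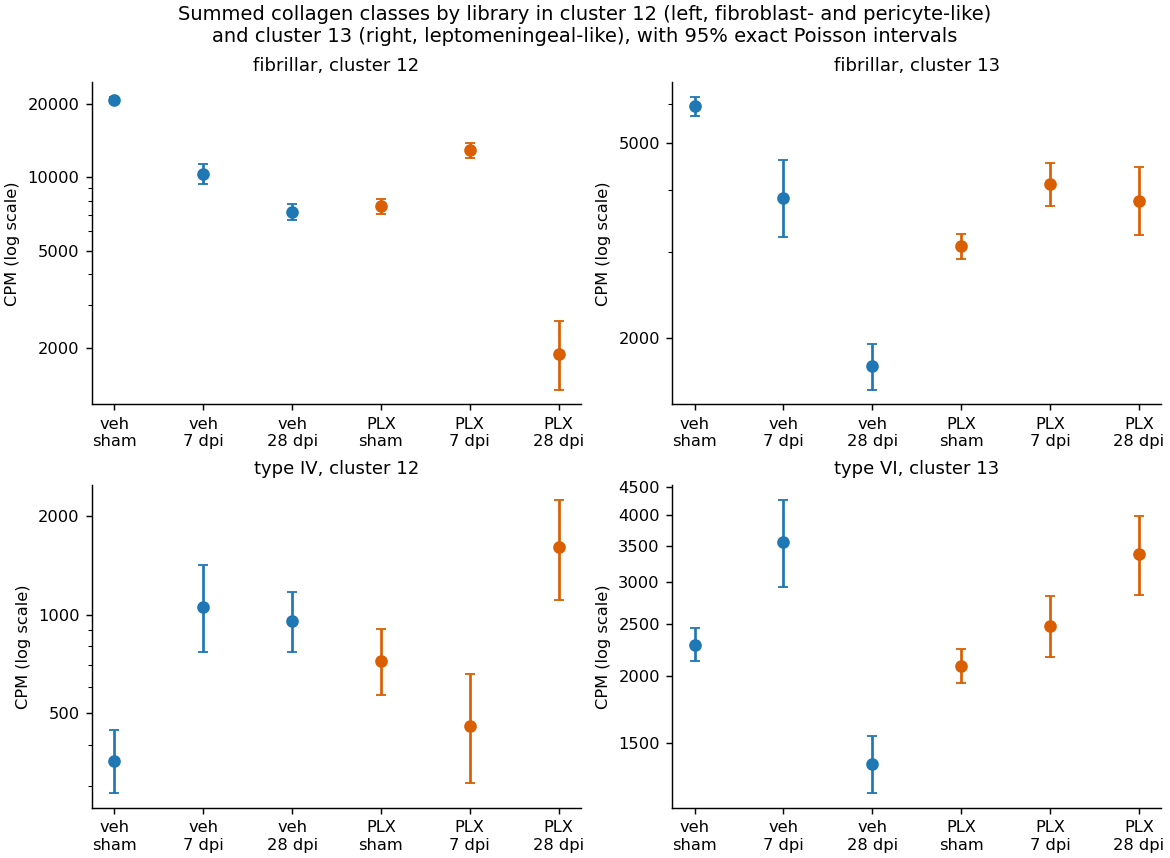
Summed CPM (log scale) of fibrillar collagens in clusters 12 and 13 (top) and of type IV in cluster 12 and type VI in cluster 13 (bottom) in each library, vehicle in blue and PLX5622 in orange, with exact Poisson intervals. In cluster 12 fibrillar collagen is highest in vehicle sham (20775 CPM) and type IV is lowest there (359 CPM).

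In cluster 13, fibrillar collagen was 5935 CPM in vehicle sham, 3863 at 7 dpi and 1756 at 28 dpi, and 3078, 4117 and 3813 under PLX5622. Vehicle 28 dpi was the lowest library, at −1.76 (−1.93 to −1.59) over sham. PLX5622 over vehicle was −0.95 (−1.06 to −0.84) in sham and 1.12 (0.84 to 1.40) at 28 dpi. With each cell weighted alike these were −0.99, −0.42 and 0.77, the same directions. Lists of other cells moved too, with a summed MDM list of 293, 841 and 3318 CPM under vehicle and 223, 1628 and 243 under PLX5622, highest in the library with least fibrillar collagen. In cells with fewer than 3 myeloid-list UMIs the 3 ratios were −0.99, −0.46 and 0.63, and vehicle 7 dpi over sham turned from −0.62 to 0.16. The fibroblast list was 7736, 3956 and 1573 CPM under vehicle and 1867, 3592 and 1482 under PLX5622, with Lum at 0 in all but vehicle sham, and the mural list held at most 3 UMIs in any library. The part of the fibroblast list was not tested.

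Col8a1 and Col12a1 kept closer levels in cluster 13 than the fibrillar genes did. Col8a1 was at 1079, 1246 and 828 CPM under vehicle and at 848, 1260.5 and 1166 under PLX5622, and Col12a1 at 745, 685 and 495, and 665, 882 and 583. Col1a2, in contrast, was at 2585, 1153 and 854 CPM under vehicle and at 1699, 1439 and 2064 under PLX5622. Type VI was 2289, 3551 and 1370 CPM under vehicle and 2089.8, 2479 and 3376 under PLX5622. Col6a3 did not keep step with its partners, at 310.5, 93.4 and 72.9 CPM and at 97.1, 368 and 0, so that Col6a1 per Col6a3 ran from 2.46 to 16.0 in the libraries where both were found. Its UMIs were few outside vehicle sham (0 to 35), and the interval of vehicle 7 dpi (19.3 to 273 CPM) overlapped that of every other library.

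By summed UMIs, Col25a1 had its lowest level in vehicle sham. It was at 130.1 CPM there (44 UMIs), 405 at 7 dpi (13 UMIs) and 375 at 28 dpi (72 UMIs), and at 491 (172 UMIs), 210.1 (20 UMIs) and 461 (19 UMIs) under PLX5622. Vehicle 28 dpi over sham was 1.53 (0.97 to 2.10), PLX5622 over vehicle in sham 1.92 (1.43 to 2.43), and PLX5622 7 dpi over sham −1.22 (−1.97 to −0.55). The UMIs came from 14 of 27, 6 of 9 and 36 of 64 cells under vehicle and 12 of 14, 5 of 12 and 4 of 8 under PLX5622. With each cell weighted alike the first 2 ratios were 0.99 and 1.11, and vehicle 7 dpi over sham was 0.55 instead of 1.64. So weighted, PLX5622 7 dpi over sham was −1.55, which puts PLX5622 7 dpi and not vehicle sham lowest of these.

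Among 14 collagens counted in cluster 13 for vehicle 28 dpi over sham, 1 was higher by 2-fold or more (Col25a1) and 7 lower (Col5a2, Col6a3, Col1a1, Col11a1, Col3a1, Col1a2, Col4a1), against 3.95% and 11.2% of 3237 genes. The median over the 14 was −0.96, against −0.18 over all genes. For PLX5622 over vehicle in sham 1 of 16 was higher (Col25a1) and 6 lower (Col11a1, Col5a2, Col6a3, Col3a1, Col5a3, Col14a1), against 3.40% and 4.45% of 4088 genes, with a median of −0.48 against −0.01.

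In the endothelial-like cluster, the main place of type IV, levels were steadier. Col4a1 was at 391, 509.8 and 393 CPM under vehicle and at 423, 535 and 499 under PLX5622. Col4a2 was at 275, 405 and 239.9 CPM under vehicle and at 272, 437 and 228 under PLX5622. Both chains were highest at 7 dpi on each diet. The type IV sum at 7 dpi over sham was 0.46 (0.25 to 0.68) under vehicle and 0.49 (0.30 to 0.67) under PLX5622, and at 28 over 7 dpi −0.52 (−0.66 to −0.37) under vehicle. At 28 dpi over sham it was −0.06 (−0.29 to 0.18) under vehicle, and 0.09 with edgeR TMM factors, where the median of all genes by CPM stood at −0.14. PLX5622 over vehicle was 0.06 (−0.19 to 0.31) for the sham libraries, and the 7 dpi and 28 dpi values were 0.08 (−0.06 to 0.23) and 0.22 (−0.03 to 0.47). None of these intervals reached 2-fold. Col4a1 per Col4a2 was 1.26 and 1.22 at 7 dpi and 1.42 to 2.19 in the other 4 libraries.

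Mural markers were present in the endothelial-like cluster in unequal amounts. The summed list was 87.3, 799.7 and 2119 CPM under vehicle and 1912, 709.8 and 2688 under PLX5622, with Kcnj8, Abcc9 and Higd1b at 0 in vehicle sham only. In cells without a mural-list UMI (39 to 283 per library) type IV was at 656, 825 and 557 CPM under vehicle and 608, 921 and 636 under PLX5622, again highest at 7 dpi, and vehicle 7 dpi over sham was 0.33.

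**Figure D4:**
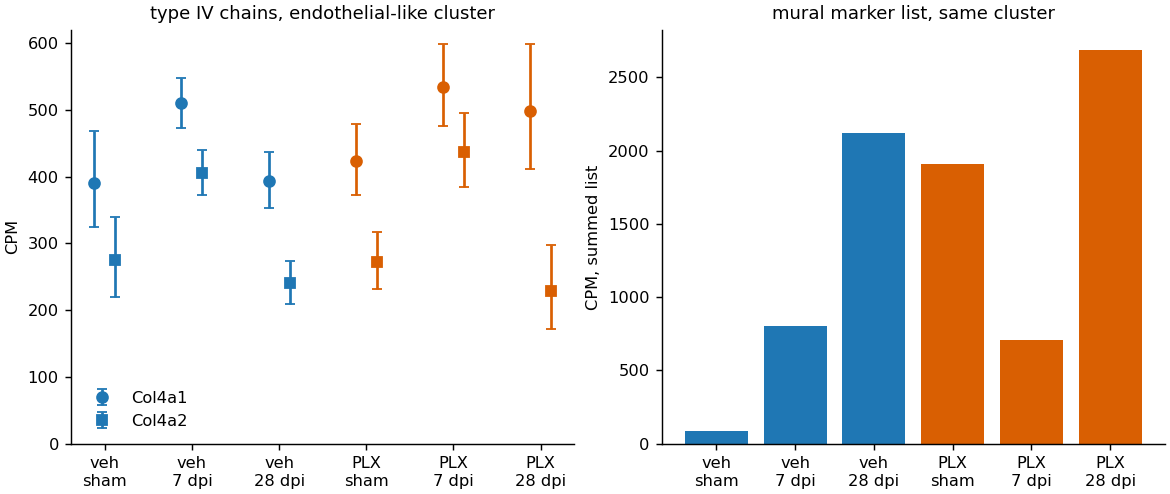
Left, Col4a1 (circles) and Col4a2 (squares) CPM in the endothelial-like cluster of each library with exact Poisson intervals. Right, summed CPM of the 6 mural markers in the same cells. Both chains are highest at 7 dpi on each diet (509.8 and 535 CPM for Col4a1), and the mural list is lowest in vehicle sham (87.3 CPM).

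Col27a1 in the microglia-like cluster was highest in vehicle sham. It was at 205 CPM there, 50.7 at 7 dpi and 71.1 at 28 dpi, and at 98.8, 112 and 72.1 under PLX5622, from 430, 342, 564, 14, 43 and 31 UMIs. Vehicle 7 dpi over sham was −2.02 (−2.23 to −1.81) and 28 dpi over sham −1.53 (−1.71 to −1.34). The median of all genes in this cluster stood at −0.59 and −0.46 in the same comparisons, and with edgeR TMM factors the ratios were −1.47 and −1.10. A Col27a1 UMI was seen in 41.1%, 13.9% and 12.4% of the cells under vehicle, and in 18.3%, 6.02% and 7.07% after each cell was thinned to 1000 UMIs, which leaves out 126, 170 and 906 cells. In T cell-like and B cell-like cells the thinned share was 0% to 2.22%, at median depths of 932 to 4341 UMIs per cell against 1686 to 6448.

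The microglia-like cluster also held MDM markers. The summed MDM list was 59.6 CPM in vehicle sham, 4291 at 7 dpi and 4254 at 28 dpi, and the microglia list 18597, 7977 and 7965. Cells without an MDM-list UMI were 586 of 674, 141 of 2154 and 733 of 3974. In them Col27a1 was at 209 CPM (188 to 231), 129 (89.6 to 179) and 111 (90.6 to 134), with ratios of −0.70 and −0.92. The paper names Spp1 both as a marker of its MDM cluster and as a gene raised in microglia after injury. Whether the cells left out were macrophages or injury-altered microglia was not tested. These levels are therefore not read as those of all microglia freed of macrophages. In the MDM-like cluster vehicle sham was again the highest of the vehicle libraries, at 38.8 CPM against 4.63 and 15.0, and the PLX5622 levels of 30.8, 1.72 and 2.33 CPM rest on 2 or 3 UMIs each.

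Col8a2 in the ependymal-like cluster was at 205, 84.5 and 131 CPM under vehicle and at 227, 149 and 137 under PLX5622. Sham was the highest library on each diet. Vehicle 7 dpi over sham was −1.28 (−1.79 to −0.78) and 28 dpi over sham −0.65 (−1.08 to −0.21), and under PLX5622 they were −0.61 (−1.06 to −0.15) and −0.73 (−1.25 to −0.22). With each cell weighted alike vehicle 7 dpi over sham was −0.44. The share of cells with a UMI, thinned, was 17.3%, 9.47% and 12.6% under vehicle and 17.6%, 18.8% and 12.0% under PLX5622 (47.4%, 27.2%, 25.8%, 59.6%, 71.2% and 33.3% before thinning), and no B cell-like cell held one. Col8a1, its partner in cluster 13, held 49 UMIs in these cells over the 6 libraries.

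**Figure D5:**
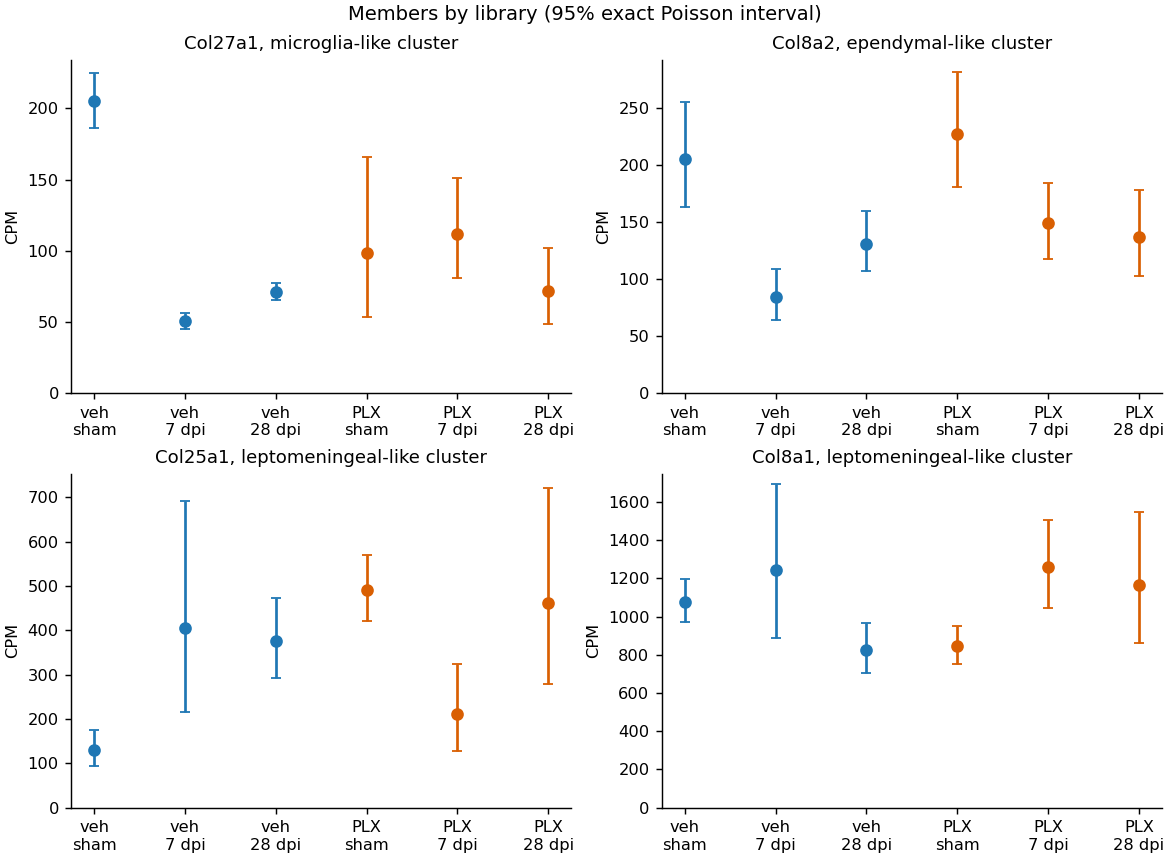
CPM of Col27a1 in the microglia-like, Col8a2 in the ependymal-like and Col25a1 and Col8a1 in the leptomeningeal-like cluster by library, with exact Poisson intervals. By summed UMIs, vehicle sham is the highest library for Col27a1 (205 CPM) and the lowest for Col25a1 (130.1 CPM).

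In the astrocyte-like and oligodendrocyte-lineage-like clusters, levels of single collagens in a library were mostly read from few UMIs. In the astrocyte-like cluster Col5a3 was at 88.5, 16.3 and 36.2 CPM under vehicle and at 106, 66.7 and 165 under PLX5622, from 3 to 69 UMIs. Col16a1 and Col9a3 had the same order under vehicle between sham and injury, at 61.6, 16.3 and 21.7 CPM and at 68.0, 32.7 and 12.1 CPM. Col1a2 was at 117, 185 and 91.8 CPM under vehicle and 92.2, 209 and 139 under PLX5622. In the oligodendrocyte-lineage-like cluster Col11a1 was at 572 CPM in PLX5622 7 dpi and at 9.52 to 190.2 in the other libraries, and 64.3% of those 84 UMIs came from 1 cell.

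Genes that make, process and bind collagen were read beside the chains, from lists chosen by function. Of 14 genes for processing and cross-linking 13 had their highest level in cluster 12 or 13, as had 8 of 15 for synthesis and folding, 9 of 11 basement membrane partners, 5 of 10 receptor and uptake genes and 3 of 6 for collagen cleavage. Of all 16003 genes 16.9% had their highest level in one of these clusters. In cluster 12 at 28 dpi under vehicle, 6 of 8 processing genes counted were at least 2-fold lower than in sham and none higher, with a median of −1.65, against 17.7% and 7.37% of all genes and a median of −0.15. Lox, the lysyl oxidase that cross-links fibrils, was at 21.3 against 329 CPM (2 against 76 UMIs), and Pcolce2, an enhancer of procollagen cleavage, at 42.5 against 497. Adamts2, which removes the amino-terminal propeptide, was at 53.1 against 272 CPM. Of 7 basement membrane partners (such as Nid1, the nidogen that links laminin to type IV) 0 passed 2-fold in either direction there, with a median of 0.01.

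In PLX5622 sham against vehicle sham in cluster 12, 5 of 8 processing genes were at least 2-fold lower (median −1.11), as were 3 of 3 cleavage genes (median −1.69, with the gelatinase Mmp2 at 206 against 666 CPM), where 9.22% of all genes were, with a median of −0.02. In cluster 13 at 28 dpi under vehicle, 6 of 12 synthesis genes were at least 2-fold lower than in sham and none higher, with a median of −0.99, against 11.2% and 3.95% of all genes and a median of −0.18. Among them Plod2, a lysyl hydroxylase, was at 67.7 against 257 CPM, Serpinh1, the collagen chaperone, at 380.3 against 1106, and Mia3, which exports procollagen from the endoplasmic reticulum, at 46.9 against 151. Ppib, a folding enzyme of more general use, was at 552 against 464 CPM. Of the receptors in that comparison 1 of 4 was lower, the uptake receptor Mrc2 at 161 against 441 CPM. The fibroblast and MDM lists differed between the same libraries (above), and their part was not tested.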

How the data were processed

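Cells of 6 pooled mouse cord libraries were profiled with the Chromium 3′ assay. Per the file headers, UMI counts per gene and barcode were made with Cell Ranger 3.0.2, on GRCm38 by the processing notes. The authors then filtered, integrated and clustered the cells in Seurat and deposited a table of raw counts with the cluster of each cell. Their methods state a limit of 3000 genes per cell, but 716 cells exceeded it and 1 cell had fewer than the stated 200. How doublets were treated is not given in the sources used here, and none were removed.

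Counts were summed per gene, cluster and library and divided by the UMI total of that sum (CPM). With 1 library per condition no test was run, and a gene was counted as different past 2-fold, among genes whose UMIs in the 2 libraries summed to 30 or more. In medians over genes a count of 0 was taken as the floor. Replicates being absent, the text gives 95% exact intervals and a floor of 3 counts. The log2 ratio intervals were run on simulated Poisson counts, the model they assume. That run checks the calculation only, since it leaves out the uneven spread of UMIs over cells. Clusters were named from marker lists, of which 80 of 84 genes were in the table. Members with at least 100 UMIs are named, with, per comparison shown, the 3 highest and 3 lowest ratios; rarer members are named by class. The members and lists were chosen with earlier results of these data known. In the libraries' own matrices 45 symbols met the rule, 8 more than in the table. The 14 bulk RNA-seq samples were not analysed here.

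Python 3.11.15 with numpy 2.4.6, scipy 1.17.1 and pandas 2.3.3 was used, and R 4.3.3 with edgeR 4.0.16 (TMM) and DESeq2 1.42.0 (size factors) for scaling alternatives only. Other alternatives left out cells by depth or marker lists, or weighted cells alike. Ratios called thinned are of cells with at least 1000 UMIs weighted alike, and no UMI was removed for them. Shares of cells called thinned are the shares expected at 1000 UMIs per cell.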

Additional observations from a re-analysis of the deposited data

Results flagged for a closer look

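In cluster 12 (fibroblast- and pericyte-like) 5 of the 10 collagens counted on both diets were lower at 7 dpi than in sham under vehicle and higher under PLX5622, with both intervals apart from 0, as were 4.94% of 850 genes, and 1 (Col4a1) went the other way on each diet, as did 4.12%. The differences between the diets were not tested. On the log2 scale Col1a2 was −0.79 under vehicle and 0.81 under PLX5622, which are −1.60 apart. Col3a1 was −1.65 against 0.59 (−2.24 apart), Col1a1 −0.47 against 1.23 (−1.70), Col5a2 −0.80 against 0.78 (−1.58) and Col15a1 −1.38 against 2.75 (−4.13). A single cell held 79.1% of the fibrillar UMIs of vehicle 7 dpi. In PLX5622 7 dpi 3 fibroblast-list cells held 807 fibrillar UMIs and 7 mural-list cells held 12. The fibrillar members of the 5 thus rest on few cells and are not separate instances. The summed fibroblast list was 7442 CPM at 7 dpi against 41840.0 in sham under vehicle. Under PLX5622 it was 50805 at 7 dpi, where 1 cell held 2608 of its UMIs, against 9741 in sham. The part of these cells and of the list in the result was not tested.

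In cluster 13 (leptomeningeal-like) Col6a1 at 28 dpi over sham was −0.61 under vehicle and 0.74 under PLX5622 (−1.35 apart), and Col6a2 was −0.61 against 0.78 (−1.39), 2 of 11 collagens counted, where 0.517% of 2322 genes differed in this way. Col25a1 at 7 dpi over sham was 1.64 under vehicle, from 13 UMIs, and −1.22 under PLX5622 (2.86 apart), 1 of 12 collagens counted, against 0.695% of 2157 genes. With each cell weighted alike these were 0.55 and −1.55. Col6a3 went the opposite way on each diet there, as did 0.834% of the genes. These differences were not tested either.

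Barcodes that the count table leaves out held 11 collagen UMIs in vehicle sham (121 barcodes) and 6 in PLX5622 sham (102 barcodes). The 8 collagen symbols absent from the table had 7 UMIs in the vehicle 7 dpi matrix.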

How the results depend on the processing

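No paired analysis was possible because each condition was 1 library. For fibrillar collagen in cluster 12, vehicle 7 dpi over sham (−1.01) was −1.52 in thinned cells, −3.16 in cells with fewer than 3 myeloid-list UMIs, −0.67 with cluster 13 added and 0.49 in cells without a mural-list UMI. Vehicle 28 dpi over sham (−1.53) was −1.38 with TMM, −1.40 with DESeq2 size factors, −1.23 with cells weighted alike, −0.90 thinned, −1.12 by the myeloid limit, −0.26 without mural-list cells and −1.75 with cluster 13. PLX5622 over vehicle in sham (−1.45) was −1.81 weighted alike, −1.83 thinned and −1.0 without mural-list cells. At 7 dpi (0.32) it was 0.13 weighted alike, 0.72 thinned, 2.10 by the myeloid limit, −0.80 without mural-list cells and 0.02 with cluster 13, and at 28 dpi (−1.93) −1.29 weighted alike and −0.17 with cluster 13. In 2 alternatives chosen after seeing the data, the first 4 ratios were −2.75, −2.14, −1.94 and 1.95 without the top cell of each library, and −0.36, −0.51, −1.02 and −0.13 among fibroblast-list cells. At 7 dpi the cells without a mural-list UMI, which were few, and the fibroblast-list cells both kept the top cell of each library. The cause of the moves in these ratios was not tested.

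For type IV in the endothelial-like cluster the myeloid limit gave 0.70 at 7 dpi and 0.33 at 28 dpi over sham under vehicle (0.46 and −0.06), and −0.10 and −0.14 for PLX5622 over vehicle at 7 and 28 dpi (0.08 and 0.22). At 7 dpi the latter was also −0.10 weighted alike and −0.07 thinned. The share of fibrillar UMIs in clusters 12 and 13 together (74.7%) was 63.2% as a mean of 6 libraries, 75.6% in cells with at least 500 genes, and 61.7% (without vehicle sham) to 79.2% (without vehicle 28 dpi) leaving out each library. At a limit of 100 UMIs, collagens past 2-fold in cluster 12 were 0 higher instead of 4 at 7 and at 28 dpi over sham, and 0 higher and 5 lower instead of 1 and 8 for PLX5622 over vehicle in sham, and in cluster 13 3 lower instead of 6 for that comparison. Fewer genes were counted at that limit. Their number and the share of all genes past 2-fold there are not given here, so these counts are not read as a change. Collagen CPM of whole libraries moved less than its interval with all barcodes of each matrix. The single-gene alternatives given in the report were also chosen after seeing the data. Depth was low in several libraries, with 40 fibrillar UMIs in cluster 12 of PLX5622 28 dpi and 9 cells in cluster 13 of vehicle 7 dpi.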
